A study of Homo sapiens with 2 samples.

Results

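The B7 ligands are cell surface proteins of the immunoglobulin superfamily, several of which T cells read through receptors of the CD28 family. PD-L1, encoded by CD274, and PD-L2, encoded by PDCD1LG2, bind the receptor PD-1 and restrain T cell activation. CD80 and CD86 deliver the costimulatory signal through CD28 or are captured by the inhibitory receptor CTLA4, and ICOSLG binds ICOS. CD276 (B7-H3) and VTCN1 (B7-H4) are ligands often found on carcinoma cells. In epithelial and tumor cells, transcription of CD274 is known to respond to interferon through JAK kinases, STAT proteins and IRF1, and to further cytokine and growth factor signals.

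The B7 ligands were measured in H2228 cells, a line of human lung adenocarcinoma cells harboring EML4-ALK variant 3, by 1 array of untreated cells and 1 array of cells given interleukin 4 (IL4). The series description states 100 ng/mL IL4 for 30 min, and the sample labels of both arrays also speak of transfections lasting 48 h, so a transfection common to both arrays cannot be told apart from none. The deposited values are log2 values named RMA, a method that summarizes the probes of each probe set after background correction and normalization. With 1 array per condition no test was possible, and each difference below is IL4 minus untreated between these 2 arrays. The members are 7 genes, CD274, PDCD1LG2, CD80, CD86, CD276, VTCN1 and ICOSLG, of 19775 genes named on the array, and all 19 of their probe sets annotated to a single gene are given, of 54675 probe sets in all. A gene is represented by whichever of its probe sets had the highest mean over both arrays. The family was selected on its IL4 minus untreated differences, with those of CD274 and PDCD1LG2 already known, so these values are a description.

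The lung epithelial markers had values between 6.29 and 11.80 in untreated cells and between 6.13 and 11.8 with IL4, lowest in NAPSA and SFTPB. EPCAM was at 11.80 in untreated cells and 11.62 with IL4, and none of the 10 lung epithelial markers lay below 5.03 on either array. This value is the median over all probe sets, and values under it are called dim here. Of 14 leukocyte markers, 10 lay below that level on both arrays and 0 differed by 1.5-fold, with values between 2.50 and 5.88 in untreated cells and between 2.37 and 5.96 with IL4. PTPRC, which encodes the pan-leukocyte antigen CD45, was at 2.50 and 2.37. The other 4 markers, CD79A, CD3E, AIF1 and ITGAM, lay above 5.03 on both arrays, at 5.88, 5.56, 5.43 and 5.19 in untreated cells and at 5.96, 5.59, 5.67 and 5.19 with IL4. Lying above this level was thus not taken to show expression of a marker.

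Of the RefSeq promoter windows, 8 belonged to 6 of the B7 ligands, and PDCD1LG2 had none in the table. The 250 bases upstream of the CD274 start (GRCh38.p14, chr9:5450292-5450541, plus strand) are shown because CD274 had the largest IL4 difference of the family, with matches to the motifs searched in capitals. The 250 bases upstream of the first CD276 start (chr15:73684133-73684382, plus strand) are shown beside them. The main CD276 probe set was above the median level on both arrays and did not reach 1.5-fold, with a log2 difference of 0.47. This CD276 window held no match, but 80.8% of its bases were G or C, against 54.8% in the CD274 window. The 2 windows thus differ in base composition, and what this does to the matches was not tested.
CD274: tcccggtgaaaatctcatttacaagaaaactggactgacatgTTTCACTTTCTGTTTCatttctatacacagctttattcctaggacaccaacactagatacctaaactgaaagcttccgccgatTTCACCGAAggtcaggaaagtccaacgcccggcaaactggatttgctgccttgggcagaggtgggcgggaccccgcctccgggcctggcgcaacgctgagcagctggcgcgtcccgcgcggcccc
CD276: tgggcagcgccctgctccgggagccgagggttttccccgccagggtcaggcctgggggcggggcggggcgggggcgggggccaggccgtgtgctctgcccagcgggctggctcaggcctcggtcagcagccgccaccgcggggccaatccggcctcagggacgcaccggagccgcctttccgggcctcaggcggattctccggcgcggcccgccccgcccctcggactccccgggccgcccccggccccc
The motifs, read on both strands, were an interferon response element (GAAANNGAAA), a STAT site (TTCNNNGAA), a STAT6 site (TTCNNNNGAA), an AP-1 site (TGANTCA) and the NF-kB consensus. In CD274 the interferon response element matched at 208 to 199 and at 202 to 193 bases upstream of the start, as 2 overlapping matches on the opposite strand, and the STAT site matched at 125 to 117 bases upstream. Over 35116 promoter windows of the same length, 3.02% held the interferon response element, 6.57% the STAT site, 5.38% the STAT6 site, 6.57% the AP-1 site and 5.21% the NF-kB consensus. CD274 held no STAT6 site, AP-1 site or NF-kB match in this window. Among the other windows, only the second of CD86 held a match, to the NF-kB consensus in 2 overlapping positions. These matches describe letters in a short window, and binding of a factor was not measured.

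The messenger RNAs of both PD-1 ligands were higher in IL4-treated than in untreated H2228 cells, and none of the other B7 ligands differed by 1.5-fold. CD274 was 9.07-fold higher and PDCD1LG2 was higher by 2.01 on the log2 scale, while CD276, CD86, ICOSLG, VTCN1 and CD80 had log2 differences between -0.13 and 0.47. Among all genes, 3.21% were at least 1.5-fold higher and 4.39% were at least 1.5-fold lower, against 2 and 0 of the 7 B7 ligands. Both higher ligands also passed 2-fold, as did 1.11% of all genes. The median log2 difference was 0.29 over the 7 B7 ligands and 0 over all genes. In RNA from a whole culture, more cells with the transcript and more transcript per cell cannot be told apart.

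For CD274, probe set 227458_at had a log2 value of 6.25 in untreated cells and 9.43 with IL4, a log2 difference of 3.18. Its other probe set, 223834_at, was at 4.84 in untreated cells, below the median level, and at 6.54 with IL4, a difference of 1.70. Both CD274 probe sets were higher with IL4, by amounts that lay 1.48 apart. CD274 stood seventh from the top among the 19775 genes by difference.
For PDCD1LG2, probe set 224399_at was at 4.19 in untreated cells and 6.19 with IL4. Probe set 220049_s_at was at 4.52 in untreated cells and 5.72 with IL4, a log2 difference of 1.20. Both went from below the median level of the array to above it, so that the untreated values were dim and no fold is given. Of the 635 genes at least 1.5-fold higher, 49 likewise went from below that level to above it.
The probe sets of a gene set 1 limit on how finely these differences can be read. Across 6056 genes whose second probe set was at or above the median level, the differences of the first and second probe set deviated from each other with a standard deviation of 0.25. The gap of 1.48 within CD274 was 5.95 times this, and the gap of 0.81 within PDCD1LG2 was 3.25 times this. Of the 6056 genes, 674 differed by at least 1.5-fold, so this standard deviation came mostly from smaller differences. It describes probe sets on the same 2 arrays and not a spread between cultures. The values of CD274 and PDCD1LG2 as genes were 1.17 apart, less than the gap within CD274, so their order was not larger than the disagreement between probe sets.

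CD80 and CD86, the ligands of CD28 and CTLA4 that are typical of antigen-presenting cells, were dim in both conditions. The 3 probe sets of CD80 were at 4.11, 3.60 and 1.81 in untreated cells and at 3.98, 3.80 and 1.56 with IL4. The 3 probe sets of CD86 were at 4.72, 3.72 and 3.24 in untreated cells and at 5.01, 3.61 and 3.39 with IL4. All 6 lay below the median level of the array on both arrays, and within each gene the differences ran in both directions, from -0.25 to 0.20 for CD80 and from -0.11 to 0.29 for CD86. No probe set of either gene differed by 1.5-fold. How well a difference at this level can be measured with these arrays was not tested, and the values do not show that the transcripts were absent.
Such dim values were also coarse. Of all probe sets below the median level, 91.0% had a log2 difference that recurred exactly, to 6 decimals, in at least 1 other probe set, and 13.4% had a difference of exactly 0, whereas at or above that level the shares were 46.4% and 3.12%. Each of the 6 differences of CD80 and CD86 recurred in 5 to 248 other probe sets. Of the 4 probe sets of CD274 and PDCD1LG2, 3 had a difference found nowhere else on the array. The other, 220049_s_at, shared its difference with 1 other probe set. Among all probe sets at least 1.5-fold higher, 27.9% shared their difference, so this was near the share for differences of that size. Of the 15 B7 ligand probe sets not past 1.5-fold, 4 also had a difference found nowhere else. The step of the processing that produced the repeats was not tested.

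CD276, which encodes B7-H3, was the member nearest to 1.5-fold without reaching it. Its probe set 224859_at was at 8.30 in untreated cells and 8.78 with IL4, a 1.39-fold difference. Its other probe sets were below the median level on both arrays, 1552914_a_at at 4.84 and 5.03, just under it, and 1559583_at at 4.11 and 3.69. The differences of the 3 probe sets were 0.47, 0.19 and -0.42, so the probe sets did not share a direction.
ICOSLG, the ligand of the costimulatory receptor ICOS, had 5 probe sets, 4 of them at or above the median level on both arrays. In untreated cells they were at 6.38, 6.17, 5.61, 5.32 and 4.75, and with IL4 at 6.59, 6.11, 5.52, 5.59 and 4.98. Of these, 3 were higher and 2 were lower with IL4, with differences between -0.091 and 0.27. VTCN1, which encodes the inhibitory ligand B7-H4, had 1 probe set, at 5.24 in untreated cells and 5.19 with IL4, barely above the median level. The differences of ICOSLG and VTCN1 were at most 0.27 in size, about the 0.25 between probe sets of a gene.
Over all 7 ligands, the order by log2 difference was CD274, PDCD1LG2, CD276, CD86, ICOSLG, VTCN1 and CD80. PDCD1LG2 and CD276 were 1.53 apart. From CD276 downward, each gene lay within 0.26 of the next, about the 0.25 between probe sets of a gene, so neighbours in this order were not separated beyond that disagreement. That standard deviation was larger, 0.35, for genes whose second probe set was below the median level, as in CD276, CD86 and CD80. Counted as probe sets, 4 of 19 were past 1.5-fold in the higher and 0 in the lower direction, against 3.34% and 3.26% of all probe sets.

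CD274 and PDCD1LG2 are neighbours on chromosome 9, and values were available for 20 other genes around them. Within 1 Mb of the CD274 start, the RefSeq table of GRCh38.p14 lists 58 genes, 22 of which had a probe set here. Of the 20 that are not B7 ligands, 0 reached 1.5-fold in either direction, a count near that given by the 3.21% and 4.39% of all genes, and their median log2 difference was -0.12. On one side of the pair, PLGRKT, a plasminogen receptor gene, was at 7.54 in untreated cells and 7.72 with IL4. On the other side, RIC1 was at 6.16 and 6.59, a difference of 0.43, while its 4 probe sets ran from -0.20 to 0.43.
JAK2, which encodes the kinase after which the JAK2-STAT pathway is named, lies on the same stretch and was at 5.60 and 5.69. RCL1 had the largest difference in the higher direction, 0.51 and RLN1, which was dim on both arrays, in the lower direction, -0.53. SLC1A1, RANBP6, CDC37L1, AK3, BRD10 and ERMP1 had differences of -0.45, -0.43, -0.31, -0.27, -0.25 and -0.11, and UHRF2 and PLPP6 had 0.32 and 0.046. The others, SPATA6L, INSL6, INSL4, RLN2, MLANA, TPD52L3 and IL33, were below the median level on both arrays, with differences between -0.29 and 0.28. The 2 differences of at least 1.5-fold on this stretch were those of the PD-1 ligand genes.

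Among the receptors that B7 ligands bind, only RGMB was 1.5-fold higher with IL4. RGMB, a coreceptor of bone morphogenetic proteins that also binds PD-L2, was at 7.40 in untreated cells and 8.64 with IL4. Its 4 probe sets had log2 differences between 1.07 and 1.24. The other 5 measured receptors are carried by lymphocytes. CD28, ICOS and NCR3 were below the median level on both arrays. CTLA4 and TMIGD2 were at 5.51 and 6.76 in untreated cells and at 5.61 and 6.65 with IL4, and 1 receptor of the list was not analysed here.
Among 16 other B7 and butyrophilin genes, 0 were higher and 1 was lower by 1.5-fold, counts near the 3.21% and 4.39% of all genes, with a median log2 difference of -0.17. The lower gene was BTN3A3, a butyrophilin of the group that presents phosphoantigen signals to gamma delta T cells, at 6.24 in untreated cells and 5.27 with IL4. Both of its probe sets were lower, by -0.97 and -0.79. BTN3A1 and BTN3A2, its paralogs, had differences of -0.51 and -0.47, and since the 3 genes are close in sequence their probe sets may not separate them fully.
Other ligands that T and natural killer cells read were counted next. The list held 21 checkpoint and costimulatory ligands outside the family, and 3 of them were past 1.5-fold with IL4, all higher, with a median over the list of 0.12. PVR and NECTIN2 encode the ligands of the inhibitory receptor TIGIT and the activating receptor CD226. PVR was at 7.58 in untreated cells and 8.69 with IL4, and its 7 probe sets had differences between 0.29 and 1.11. NECTIN2 was at 7.31 and 8.05, with 4 probe sets between 0.37 and 0.74, of which only the highest was past 1.5-fold. As the mean over its probe sets, the log2 difference of NECTIN2 was 0.55, under 1.5-fold. CD70, the ligand of CD27, was at 8.41 and 9.01, a 1.51-fold difference just past the level counted.

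Genes that act on CD274 were compared in the same way, as messenger RNA, which does not show phosphorylation or protein. Of 12 genes of the interferon route, 10 were measured, of which 2 were at least 1.5-fold higher and 1 was lower, with a median log2 difference of 0.23. The receptor chain genes IFNAR2 and IFNGR2 were 2.29-fold and 2.10-fold higher, and the 3 probe sets of IFNAR2 had log2 differences between 0.56 and 1.19, the lowest of them under 1.5-fold. IRF2, a factor that competes with IRF1 for the same DNA element, was 1.84-fold lower. IRF1 itself was at 7.74 in untreated cells and 8.26 with IL4, a 1.43-fold difference. Of 8 genes of the IL4 route, 2 were higher, the receptor gene IL4R (1.85-fold) and the JAK inhibitor gene SOCS1 (4.74-fold), and 0 were lower. The 4 probe sets of SOCS1 had differences between 0.22 and 2.24, and all of them are of the kinds that can bind several transcripts. STAT6, the transcription factor of IL4 signaling, was at 9.51 and 9.73.
Of 13 other transcription factors that act on CD274, 12 were measured. Of these, 6 were past 1.5-fold, all higher, with a median over the list of 0.59. The list was chosen with earlier results of these data known, so this count is a description. Among all genes, 3.21% were at least 1.5-fold higher. RELB and NFKB1, subunits of NF-kB, were 3.06-fold and 2.81-fold higher. JUN and FOSL1, subunits of AP-1, were 2.84-fold and 2.13-fold higher. MYC and RELA, named after their values were seen, were 1.92-fold and 1.61-fold higher. When probe sets of the kinds able to bind several transcripts were set aside, 4 genes of this list were counted as higher. MYC and RELA were then no longer among them. RELB, NFKB1, FOSL1 and MYC each rested on 1 probe set. FOS was at 5.02 and 4.66, below the median level on both arrays.
Of 14 genes that set the stability and glycosylation of the PD-L1 protein, 1 was past 1.5-fold, a share near that of all genes, and the median was -0.031. The higher gene was TRIM21, an interferon-inducible ubiquitin ligase, at 7.20 and 7.85. CMTM6 and CMTM4, which keep PD-L1 at the cell surface and were named after their values were seen, had differences of -0.070 and -0.11. Across the lists, each share of higher and of lower genes is to be read beside the 3.21% and 4.39% of all genes, and the lists share members such as JAK1 with each other. Of the 10 lung epithelial markers, 1 was 1.5-fold higher and 1 lower, CDH1 at 10.18 and 10.92 and NKX2-1 at 7.88 and 6.91. The other probe set of NKX2-1 had a log2 difference of -0.32. All probe sets of NKX2-1 and of CDH1 are of the kinds that can bind several transcripts, so no value was left for either gene when those were set aside. The part of a difference between the cultures in the values of CD274 and PDCD1LG2 was not tested.

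The genes whose pair of values lay nearest to that of CD274, by Euclidean distance over the 2 arrays, were NEDD9, HBEGF, ICAM1, CCN2 and TFPI2, at distances between 0.59 and 0.89 log2 units. NEDD9, a scaffold protein of focal adhesions, was at 6.23 in untreated cells and 8.83 with IL4. Nearest to PDCD1LG2 were FILIP1L, GRIN2A, MT1M, TNFRSF9 and IL24, at distances between 0.30 and 0.44. TNFRSF9, which encodes the costimulatory receptor 4-1BB, was at 4.56 and 6.13. The values come from different probe sets, which are not on a common scale between genes, so this closeness describes array values and not transcript amounts.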

How the data were processed

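The authors hybridized biotinylated cRNA from H2228 cells to Affymetrix U133 Plus arrays, 1 per condition, and deposited a log2 value for each probe set. RMA, with no version, is the tool in the submitters' processing notes, whereas GCOS, a 2-fold filter and a P-value cutoff stand in the paper's methods. No genome build is given in the sources used here, and no scanner files were analysed. Values were used as deposited. Of 54675 probe sets, 41097 carried 1 gene in the array annotation, and 41043 of these took their current symbol from the RefSeq table of GRCh38.p14. Folds are powers of 2 of log2 differences, and 1.5-fold is the level of the paper's results. The number of arrays limits the precision.

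The B7 ligands and all gene lists were chosen with earlier results of these data known. Genes named are the ligands, all measured genes within 1 Mb of CD274, the 5 genes nearest to CD274 and PDCD1LG2, and up to 4 genes in each direction past 1.5-fold per list (or the 2 largest differences), of those not dim on both arrays. Further list genes, among them EPCAM, PTPRC, CD3E, ITGAM, IRF1, STAT6, FOS, BTN3A1, BTN3A2 and the lymphocyte receptors, were named after their values were seen. Counting, the loess and quantile steps and the motif search were tested on simulated data. Alternatives were a 2-fold level, the mean over probe sets, the dimmest probe set, leaving out probe sets that can bind several transcripts, loess (fraction 0.3), quantile normalization, median centring, a floor at the median level and leaving out dim genes. Python 3.11.15, numpy 2.4.6, pandas 2.3.3, statsmodels 0.14.6 and matplotlib 3.10.9 were used. RefSeq sequences are those of GRCh38.p14.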

Additional observations from a re-analysis of the deposited data

How the results depend on the processing

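CD274 and PDCD1LG2 were the 2 B7 ligands at least 1.5-fold higher, with 0 lower, under all 9 alternatives, and no ligand past 1.5-fold changed direction. Of 49 values of the 7 ligands under 7 alternatives, 40 moved by less than 0.25, the standard deviation between probe sets of a gene. Some of these could not move. Median centring changed nothing because the median difference over all probe sets was 0. VTCN1 had 1 probe set, so no choice of probe set could change it. CD274, PDCD1LG2, CD86 and CD276 kept their main probe set when those able to bind several transcripts were left out. As the mean over probe sets, the log2 differences of CD274, PDCD1LG2 and CD276 were 2.44, 1.60 and 0.083, and in the dimmest probe set they were 1.70, 1.20 and -0.42. With values floored at the median level, PDCD1LG2 was at 1.17 and CD86 at 0, and CD80 was at 0.20 once probe sets able to bind several transcripts were left out. Of the 110 genes on the other lists, 16 were higher and 3 lower, against 9 and 0 at 2-fold. Of 162 counts of single lists, 149 stayed within 1.5 times. Some of these could not change either, as under median centring. A fall from 6 to 4 in the higher transcription factors that act on CD274 counted as within. The genes near CD274, whose alternatives were added after the data were seen, had 0 higher and 0 lower under each. No paired analysis was possible because each condition has 1 array, which also leaves no replicate to omit. That single array and the dim levels of CD80, CD86 and untreated PDCD1LG2 limit what can be read.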
